A study of Mus musculus with 2 samples.

Results

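The genes described here are the writers, readers and erasers of N6-methyladenosine (m6A), 10 members chosen by gene symbol out of 55536 annotated mouse genes. They are the writer-complex genes Mettl3, Mettl14, Wtap, Virma and Zc3h13, the readers Ythdc1, Ythdf1 and Ythdf2, and the erasers Alkbh5 and Fto. All 10 symbols matched 1 gene identifier each. They were measured in bone-marrow-derived macrophages of C57BL/6J mice, primary cells that had been exposed for 20 min to lipid A at 100 ng/ml. Lipid A is the membrane anchor of bacterial lipopolysaccharide and is sensed by the receptor TLR4. RNA came from a nucleoplasmic fraction (soluble contents of the nucleus) and was depleted of ribosomal RNA before sequencing. The 2 libraries are numbered as biological replicates of this 1 group, and both carry the same donor identifier, so n = 2 counts libraries and SD may be technical. RNA input differed, at 1 µg for replicate 1 and 500 ng for replicate 2. Sex and age were not collected. With no second condition, the values below describe levels, transcript makeup and the spread between libraries, and no difference between conditions was tested.

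m6A is the most common internal modification of messenger RNA. Mettl3 carries the catalytic site and works as a heterodimer with Mettl14, which holds the RNA, while Wtap, Virma and Zc3h13 belong to the larger assembly that places the enzyme in nuclear speckles and on its targets. Proteins with a YTH domain read the mark: Ythdc1 in the nucleus, where it acts on splicing and export, and Ythdf1 and Ythdf2 in the cytoplasm, where they act on translation and decay. Alkbh5 and Fto are oxygenases that remove the methyl group, and in macrophages the mark affects how long mRNAs of innate immune signalling last.

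Depth over genes was 18194818 expected counts in replicate 1 and 18667509 in replicate 2, of which the members together took 0.0730% and 0.0682%. All 8 macrophage markers reached 1 TPM (transcript abundance per length, scaled to the library) in both libraries, with summed levels of 3712 and 3397 TPM. No marker of the neutrophil list (0 of 5), or of the B cell, T cell, erythroid and stromal lists (0 of 3 each), reached 1 TPM in both libraries of the first quantification, and their summed levels lay between 0 and 2.13 TPM. In the second quantification the T cell marker Cd3d was at 2.90 and 9.43 TPM, against 1 count in each library of the first. Cd3g was at 0.36 and 1.17 TPM there, against 0 counts. Other lists also held markers with more counts there, among them Col1a1 (139 and 149, against 7 and 8) and Mpo (58 and 77, against 1 and 10). Both were below 1 TPM. Ly6g stayed at 0, and S100a9 had 9 and 8 counts, against 9 and 6. The mitochondrial share of counts, which is RNA from outside the nucleus, was 3.19% in replicate 1 and 10.53% in replicate 2. The share of the nuclear RNA Malat1 was 9.72% and 10.2%. The part of the mitochondrial share in the values below was not tested.

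Some annotated transcripts run into, or across, an intron of the gene's principal transcript (the APPRIS reference isoform of the annotation). In 6 of the 8 members with such a transcript these averaged 50% or more of TPM, beside 33.2% of 8394 genes. The measure, given below, was defined after the values had been seen. The junctions concerned are shown before the levels. Each line holds the last 10 exonic and first 20 intronic bases of the 5′ splice site, with the GT that opens the intron in capitals, read 5′ to 3′ on the gene's strand from the GENCODE M21 transcripts (mm10). In the named transcripts the exon does not stop at the GT but continues into the intron.
Wtap intron 6, chr17:12975276-12975305, reverse strand, read through by Wtap-204: cgcctgatagGTaaacaaatcatactcccc
Fto intron 8, chr8:91522887-91522916, forward strand, read through by Fto-203: ggcatgccagGTttgttctgctcagaggtg
Fto intron 7, chr8:91485269-91485298, forward strand, read through by Fto-204: ggagagcatgGTaagtgcgtgaggtctgag
Fto intron 4, chr8:91441797-91441826, forward strand, read through by Fto-202: ttcatgctggGTaatgttgggagtctcagg
Virma intron 13, chr4:11527130-11527159, forward strand, read through by Virma-201: gaccacgcagGTaccacttcatatcacatg
Mettl3 intron 6, chr14:52297451-52297480, reverse strand, read through by Mettl3-203: tcacaggaagGTaatataatccagatatgt
Mettl14 intron 10, chr3:123371255-123371284, reverse strand, read through by Mettl14-204: atcaggccagGTgagacctcagttttgata
Ythdc1 intron 11, chr5:86828112-86828141, forward strand, read through by Ythdc1-207: atgtgggaagGTtagaaacgttctttggac
Ythdc1 intron 12, chr5:86830627-86830656, forward strand, read through by Ythdc1-207: cagagaccagGTtaatattttataatcctg

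For the introns that a transcript crosses whole, the far end is shown as the last 20 intronic and first 10 exonic bases, with the closing AG of the intron in capitals.
Ythdc1 intron 11, chr5:86830534-86830563, forward strand: aatgtgtctaatttgtgtAGgcgtcgacca
Ythdc1 intron 12, chr5:86831644-86831673, forward strand: aatgcttgatgtttgaacAGggtatgtaaa
Mettl14 intron 10, chr3:123369681-123369710, reverse strand: ttttccccgctttatttcAGgctggctcac

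All 10 members were detected at 1 TPM or more in both libraries, as were 44.9% of 22015 nuclear-encoded protein-coding genes. Their median level was 14.0 and 10.7 TPM (12.4 ± 2.32, SD, n = 2). Over the 9889 protein-coding genes that reached the same level, the median was 11.2 and 8.53 TPM. In the second quantification the medians were 6.73 and 8.77 TPM over the members and 6.11 and 8.94 TPM over the same 9889 genes. There the members were the lower of the 2 in replicate 2. In these bulk libraries fewer cells with a transcript and less of it per cell cannot be told apart.

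Among the writers, Wtap (chr17:12966796-12994169) was highest, with 64.3 TPM in replicate 1 and 42.8 TPM in replicate 2. It ranked 848th and 966th among nuclear-encoded protein-coding genes. Wtap carries no catalytic site and brings the methyltransferase pair to nuclear speckles. Virma (chr4:11485958-11550684), the large scaffold of the assembly, had 14.6 and 10.8 TPM. Zc3h13 (chr14:75284373-75344426), a zinc finger protein that holds the assembly in the nucleus, had 13.4 and 10.6 TPM. The 2 genes were level with each other within each library, 0.12 and 0.03 apart as log2 Virma over Zc3h13.

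Mettl3 (chr14:52294841-52305128) had 13.0 and 11.8 TPM, whereas Mettl14 (chr3:123368297-123386108) had 3.73 and 2.97 TPM and was the lowest member in both libraries. Mettl3 over Mettl14 was therefore 3.42-fold in replicate 1 and 3.86-fold in replicate 2 (log2 of TPM + 0.1, 1.86 ± 0.12, SD, n = 2). These proteins form a pair, but the gene totals hold transcripts that cannot encode the whole protein. Over transcripts of class protein_coding alone the log2 ratio was 0.28, but that class keeps 2 shorter Mettl14 transcripts. Over transcripts with 90% or more of the principal coding length it was 0.77 in replicate 1 and 2.51 in replicate 2. For Mettl14 that is Mettl14-201 alone, with 115 and 36 counts (posterior SD 11.3 and 12.1).

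The nuclear reader Ythdc1 (chr5:86804221-86836659) had 49.9 and 47.3 TPM. The cytoplasmic readers among the members were lower in the same libraries. Ythdf2 (chr4:132184912-132212303), which recruits a deadenylase to marked mRNA, had 7.95 and 6.81 TPM. Ythdf1 (chr2:180904377-180920949), linked to translation, had 5.92 and 5.39 TPM. Ythdc1 stood 6.21-fold and 6.86-fold above Ythdf2, and Ythdf2 stood 1.34-fold and 1.26-fold above Ythdf1. These are levels of nuclear RNA, and the proteins were not measured.

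Of the erasers, Fto (chr8:91313525-91668439) had 19.6 and 15.1 TPM. Alkbh5 (chr11:60536381-60558512) had 17.1 and 9.96 TPM. Fto was higher than Alkbh5 in both libraries, by 1.15-fold and 1.51-fold, but their ranges over the libraries overlap.

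By mean level the order was Wtap (53.5 ± 15.2 TPM), Ythdc1 (48.6 ± 1.85), Fto (17.4 ± 3.19), Alkbh5 (13.53 ± 5.05), Virma (12.7 ± 2.67), Mettl3 (12.4 ± 0.88), Zc3h13 (12.01 ± 1.97), Ythdf2 (7.38 ± 0.81), Ythdf1 (5.66 ± 0.37) and Mettl14 (3.35 ± 0.54; SD, n = 2 for each). Wtap and Ythdc1 overlapped, and so did each neighbouring pair in the run of Fto, Alkbh5, Virma, Mettl3 and Zc3h13. The steps below Ythdc1, below Zc3h13, below Ythdf2 and below Ythdf1 were free of overlap. The second deposited quantification, a separate transcript-level estimate for the same libraries, also had Wtap highest (34.1 and 43.1 TPM), Ythdc1 next (20.1 and 36.3 TPM) and Mettl14 lowest (1.43 and 2.30 TPM). There Mettl3 had 9.38 and 17.4 TPM and was next in order.

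**Figure D1:**
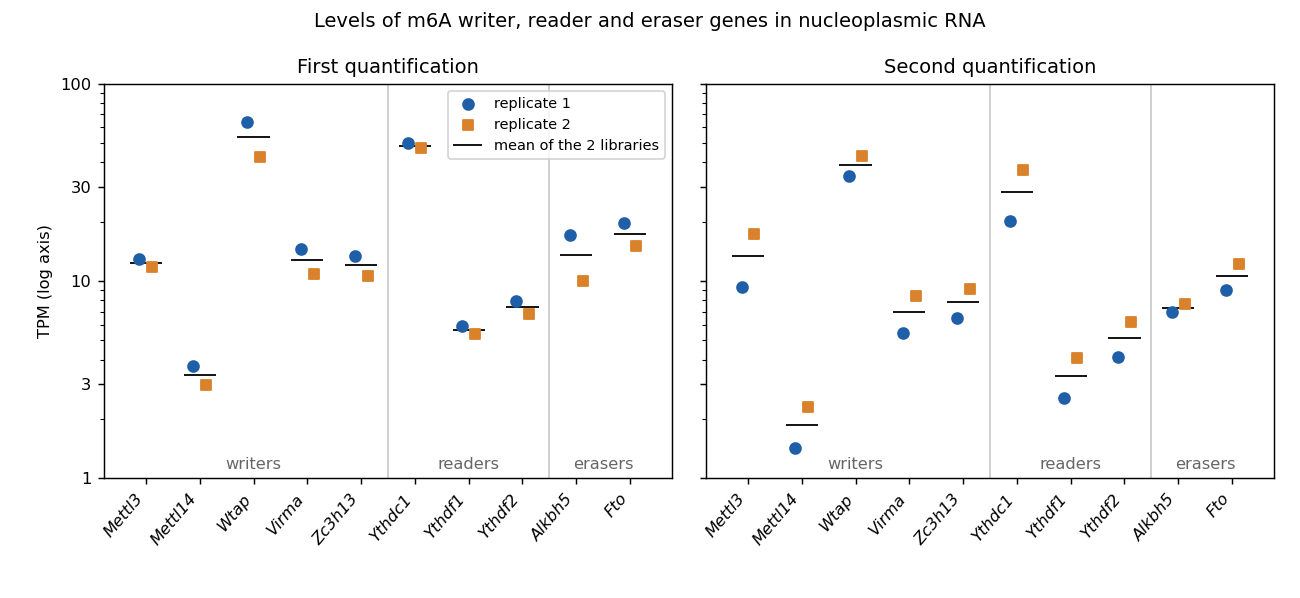
TPM on a log axis of the 10 members in replicate 1 (circles) and replicate 2 (squares), with a line at the mean of the 2 libraries, for the first deposited quantification (left) and the second (right). Wtap and Ythdc1 lie highest in both panels and Mettl14 lowest, at 3.73 and 2.97 TPM on the left and 1.43 and 2.30 TPM on the right.

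The spread between the libraries was then measured on counts, as the log2 ratio of replicate 2 over replicate 1 after TMM scaling, with a 95% interval that covers counting error only. No member lay past 2-fold. Of the 15557 genes averaging at least 10 scaled counts, 8.81% lay past 2-fold, 4.83% more than 2-fold higher in replicate 2 and 3.97% more than 2-fold lower (752 and 618 genes). On TPM ratios that split was 373 higher and 1769 lower, and in the second quantification it was 1942 higher and 1110 lower. The median absolute log2 ratio was 0.14 over the members and 0.31 over all these genes. The members all averaged 100 or more scaled counts, whereas the genes they are set beside begin at 10. Among genes at 100 or more, 146 were over 2-fold higher and 194 over 2-fold lower. No median was taken over genes matched to the members in count.

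Alkbh5 was furthest apart, with 1794 counts in replicate 1 and 1276 in replicate 2. Its ratio was −0.43 (interval −0.54 to −0.33). Wtap, with 2104 and 1813 counts, had a ratio of −0.16 (−0.25 to −0.06). These were the 2 members whose interval lay below 0, as did the interval of 25.6% of all tested genes. The intervals of 3 members lay above 0, as did those of 24.5% of tested genes. Ythdc1 had 3623 and 4005 counts (0.20), Ythdf1 313 and 363 (0.27), and Mettl14 251 and 297 (0.30). These 3 signs turned on the TPM scale, where the ratios were −0.08 for Ythdc1, −0.14 for Ythdf1 and −0.33 for Mettl14, and so did those of Ythdf2 (−0.22) and Zc3h13 (−0.34). The median of all tested genes was −0.36 on that scale.

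The other 5 members had intervals that include 0. Fto had 1476 and 1384 counts, Virma 1380 and 1295, Zc3h13 1477 and 1430, Ythdf2 522 and 545, and Mettl3 348 and 326. Their ratios lay between −0.03 and 0.12. Ythdc1 and Wtap also have the lowest GC content of the members, 39.1% and 41.6%. With the trend of the ratio on GC content taken out, Ythdc1 came to −0.06 and Wtap to −0.35, while Alkbh5 stayed at −0.41.

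**Figure D2:**
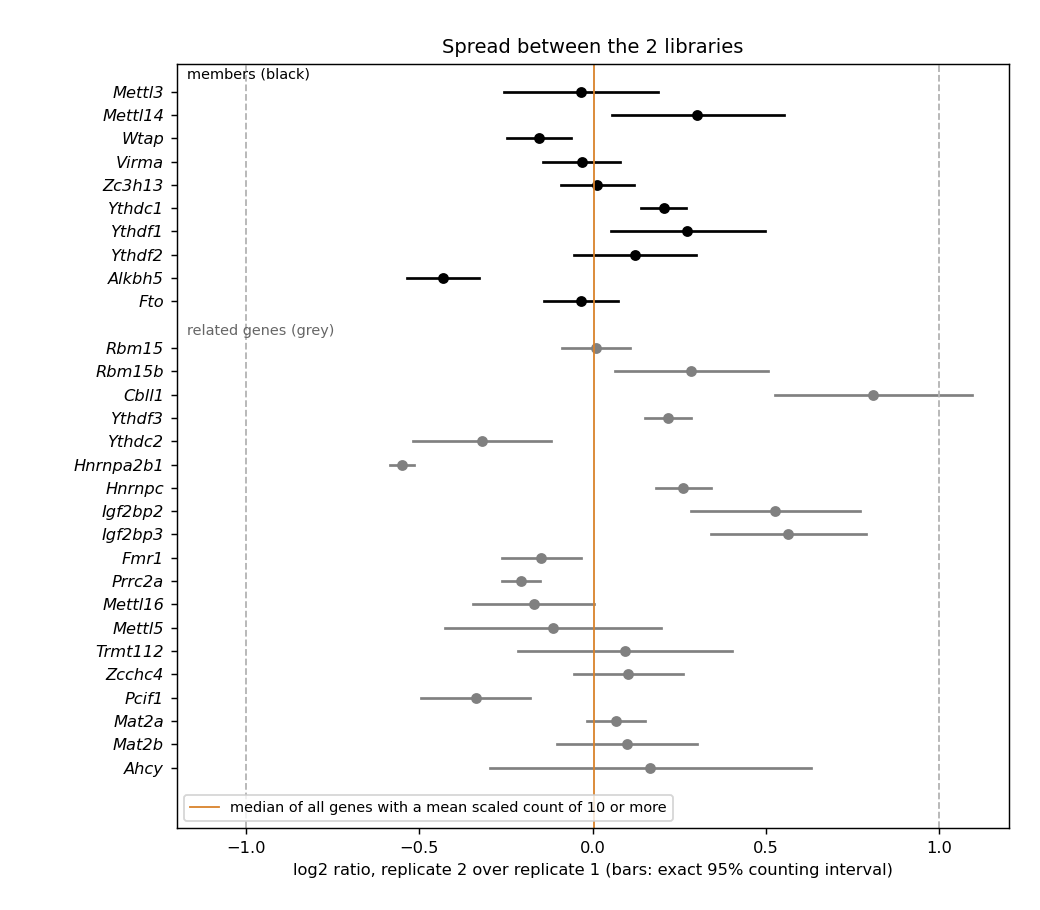
Log2 ratio of scaled counts, replicate 2 over replicate 1, for the 10 members (black) and 19 related genes averaging at least 10 scaled counts (grey); bars are exact 95% counting intervals, the solid line is the median of all 15557 tested genes and the dashed lines mark 2-fold. Every point lies within 2-fold, and Alkbh5 at −0.43 is the lowest of the members.

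The transcript tables show what these levels are made of. The highest Wtap transcript in the first quantification was Wtap-204, with 20.1 and 15.7 TPM. It keeps the first 6 exons, continues for 2611 bases into intron 6, whose junction is shown above, and has a coding length of 453 bases against 1188 in the principal Wtap-201. The transcripts with the whole coding sequence, Wtap-203 (12.8 and 5.99 TPM) and Wtap-201 (6.94 and 7.87 TPM), differ mainly in their first exon, and reads were divided between them with a posterior SD of 52 to 65 counts each. Summed, they came to 30.6% and 32.4% of Wtap TPM. Transcripts that end before the principal stop codon held 69.4% and 67.6%. The annotation marks the 3′ end of Wtap-206, Wtap-207 and Wtap-208 as incomplete, so where these end is unknown. With these not counted as ending early, but kept in the gene's total, the share was 36.0% and 37.7%. That share is therefore a lower limit.

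Fto had the largest such share of the members in the first quantification. Its transcripts ending before the principal stop codon held 81.9% of TPM in replicate 1 and 76.5% in replicate 2. Fto spans 354915 bases and its last intron alone 143385, and 3 transcripts stop in introns 4, 7 and 8. Fto-202 (3.17 and 2.62 TPM) stops in intron 4 with a coding length of 948 bases, and Fto-204 (3.88 and 2.32 TPM) stops in intron 7 with 1239 bases. Fto-203, the highest at 9.03 and 6.64 TPM, stops in intron 8, the last, with a coding length of 1443 bases against 1506 in the principal transcript. The principal Fto-201 had 3.43 and 3.55 TPM.

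Virma was close to evenly divided on TPM of the first quantification. Virma-201, which stops in intron 13 with a coding length of 3417 bases against 5433, had 7.64 and 4.88 TPM. The principal Virma-202, with all 24 exons, had 6.43 and 5.83 TPM. The order of these transcripts differed between the libraries on that scale. On counts Virma-202 led in both, with 770 and 851 against 544 and 424 for Virma-201. In the second quantification Virma-201 led in both, at 2.86 and 4.35 TPM against 1.83 and 3.05 for Virma-202.

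In Ythdc1, transcripts annotated as retained_intron held 54.1% of TPM in replicate 1 and 59.3% in replicate 2, on 4 of its 9 transcripts, the highest such share of the members in the first quantification. In the second it was 54.1% and 55.4%, below that of Mettl3. A retained_intron share of 50% or more was found in 22.2% of the 6517 genes that have such a transcript and average at least 1 TPM. Ythdc1-207, at 11.3 and 9.93 TPM, crosses introns 11 and 12 whole, between the junctions shown above. Ythdc1-206 (6.36 and 6.94 TPM) holds most of intron 9 and the start of intron 11. Ythdc1-209 (7.44 and 5.73 TPM) is a single exon within intron 1. A further transcript, Ythdc1-208 (4.75 and 5.08 TPM), is classed as a target of nonsense-mediated decay and enters intron 11 at the same junction. The transcripts with at least 90% of the principal coding length, Ythdc1-201, -202 and -203, held 35.1% and 29.6%. The class retained_intron does not itself say that an intron is present, since Ythdc1-204 carries the class (1.93 and 5.46 TPM) with 10 bases of intron.

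Mettl3 had 38.6% and 52.0% of its TPM on 5 retained_intron transcripts, and 63.2% and 70.9% in the second quantification. In the first quantification these transcripts lay between 0.30 and 1.66 TPM, and Mettl3-203, which enters intron 6, had 1.09 and 1.66 TPM. In the second Mettl3-203 was the highest of them, at 3.38 and 6.93 TPM. The highest Mettl3 transcript in the first quantification was the principal Mettl3-201, at 4.16 and 3.94 TPM, and it was the only one with the whole coding sequence.

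Ythdf2 had 29.3% and 25.3% of its TPM on Ythdf2-202, which holds intron 1 whole (2.33 and 1.72 TPM). Its principal Ythdf2-203 had 5.62 and 4.94 TPM. Mettl14 has 1 retained_intron transcript, which was listed at 0 counts in both libraries, and the other 6 members have none annotated. The median share over the 4 members with such a transcript was 36.3 ± 3.30% (SD, n = 2), against 32.5 ± 0.67% over the 6517 genes.

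The class name misses part of this. Mettl14-202 crosses introns 7 to 10 whole and Mettl14-204 crosses intron 10 whole, yet both are classed protein_coding, as are Wtap-204, Virma-201 and the short Fto transcripts. A second measure, defined after these values had been seen, therefore took every transcript with 100 or more exonic bases inside introns of the principal transcript. On it Fto had 82.5% and 76.5%, Wtap 64.9% and 65.3%, Ythdc1 61.0% and 58.9%, and Mettl3 64.1% and 54.5%. Virma had 56.0% and 46.2%. Mettl14 differed most between libraries, at 35.9% and 79.4%: the principal Mettl14-201 had 2.39 and 0.61 TPM and Mettl14-204 had 0.74 and 1.74 TPM. These rest on few counts, 115 and 36 for Mettl14-201 (posterior SD 11.3 and 12.1) and 56 and 162 for Mettl14-204 (14.9 and 15.1). Ythdf2 had 29.3% and 25.3%, and Zc3h13 was at 0 in both, against 15.4% and 8.12% in the second quantification.

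Of the 8 members with such a transcript, 6 averaged 50% or more on this measure, and 4 did so in each library. Among the 8394 genes to which the measure applies, 33.2% averaged 50% or more. The median was 57.6 ± 1.30% over the 8 members and 38.7 ± 0.39% over all genes. Because the measure was defined after the members' transcripts had been seen, this gap cannot serve as a test of the members. On the share of TPM that ends before the principal stop codon, the 9 members with such a transcript had a median of 28.0 ± 1.25% and all 8400 genes a median of 31.3 ± 0.42%, and 3 of the 9 averaged 50% or more, beside 22.5% of all genes. The direction depends on the scale: on shares of counts the medians were 25.3% over the members and 11.9% over all genes. Incomplete 3′ ends were then not counted as early, but their TPM was kept in each gene's total. The medians of TPM shares were 28.9% and 27.2% over the members in replicates 1 and 2, and 26.6% and 26.5% over all genes. On that count 2 of the 9 members averaged 50% or more, beside 17.6% of all genes. Reads from unspliced precursor RNA and from finished transcripts that end in an intron cannot be told apart in these tables.

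**Figure D3:**
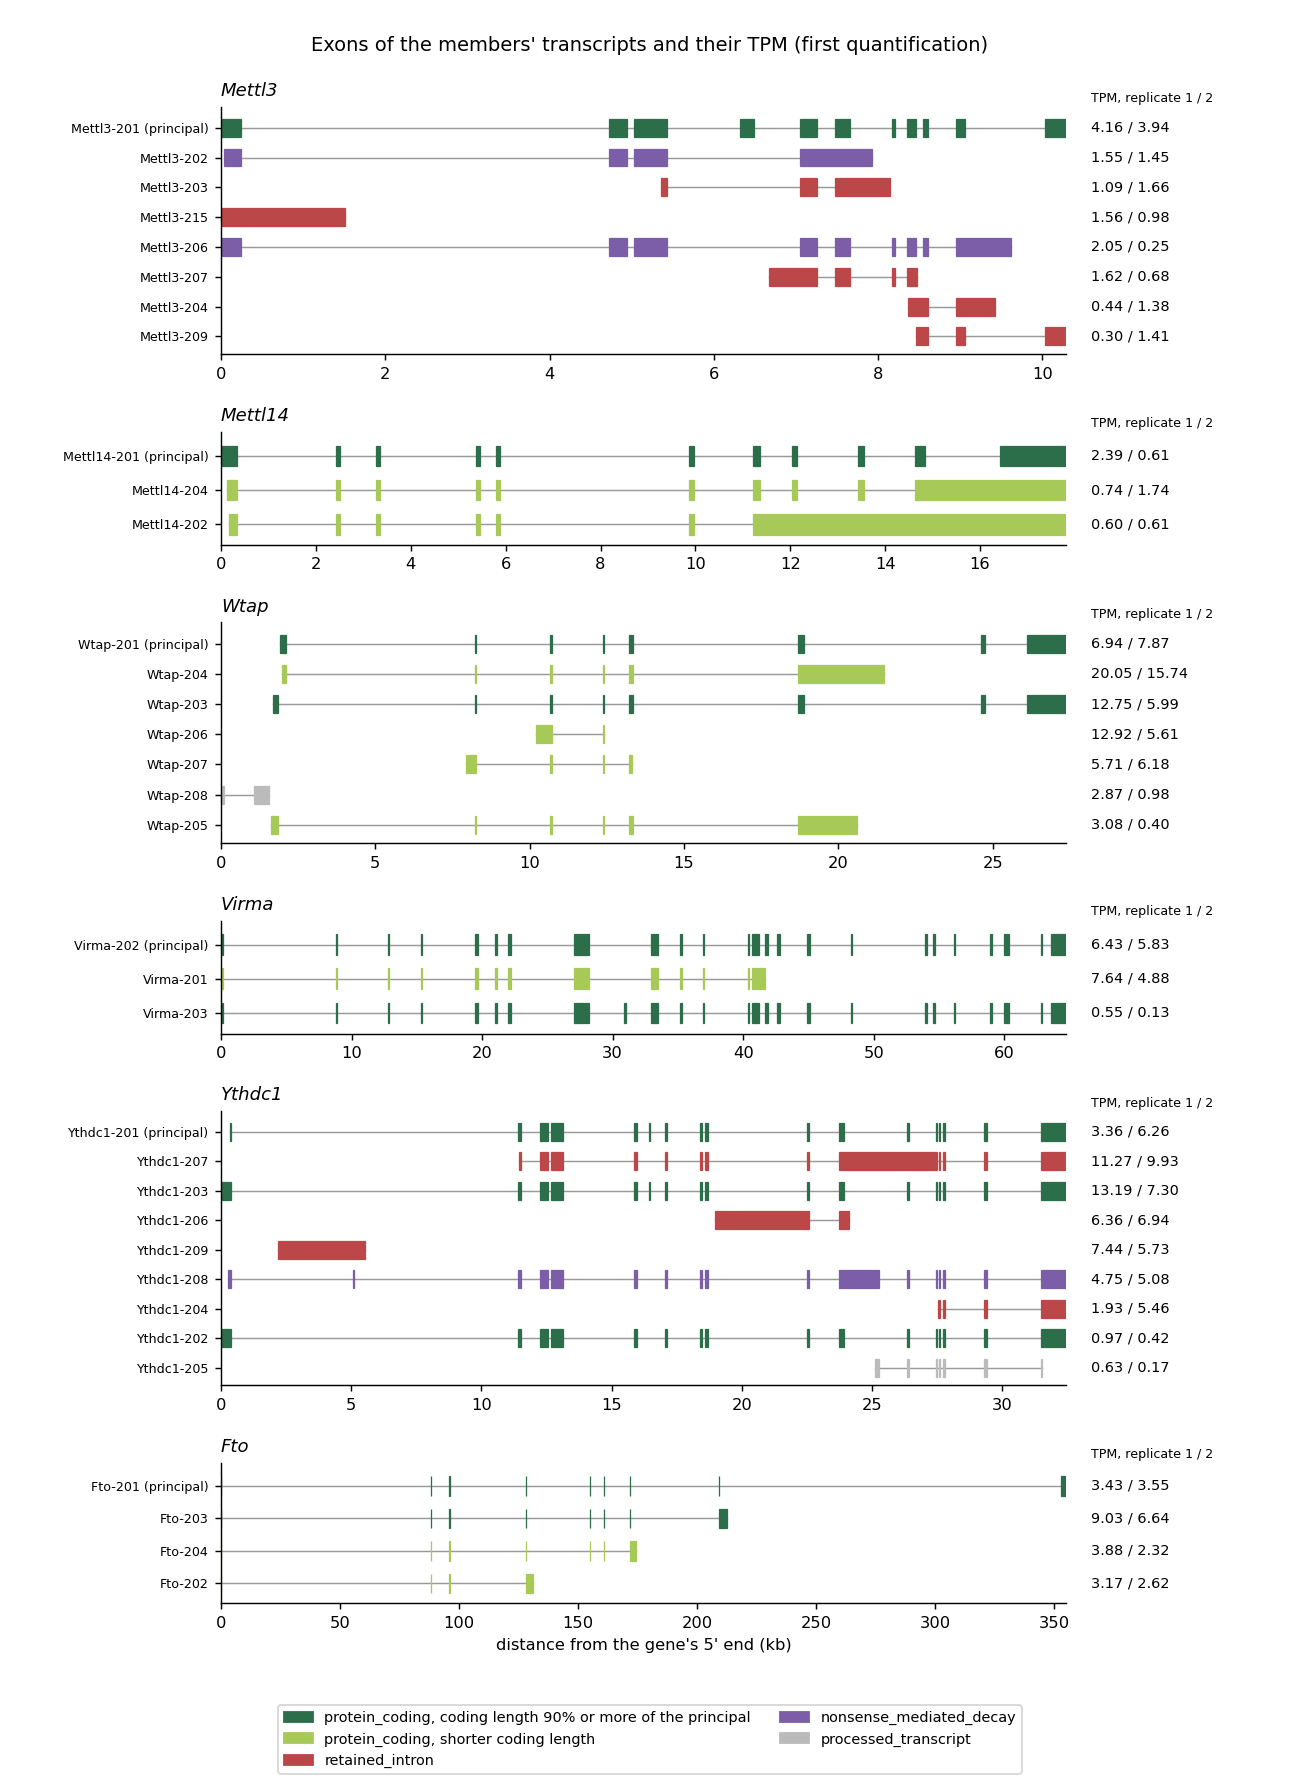
Exons (boxes, to scale) of the transcripts of 6 members that reached 0.5 TPM in a library, drawn from the 5′ end of each gene in kb, with TPM in replicate 1 and replicate 2 at the right; colours give the annotated class. Wtap-204 (20.05 and 15.74 TPM) and Fto-203 (9.03 and 6.64 TPM) end in a wide last exon inside an intron of the principal transcript drawn above them.

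Zc3h13, Ythdf1 and Alkbh5 were almost wholly on full-length coding transcripts. Alkbh5 had all of its TPM on Alkbh5-201 in both libraries. Ythdf1-201 had 5.48 and 5.23 TPM, which is 92.6% and 96.9% of the gene. Zc3h13-201 and Zc3h13-203, whose coding lengths are 5187 and 5190 bases, together held 97.5% and 97.6%, and how reads were divided between them carries a posterior SD of 59 to 82 counts. In the second quantification these full-length shares were lower, at 75.4% and 87.1% for Zc3h13, 79.5% and 88.8% for Ythdf1 and 91.5% and 96.9% for Alkbh5.

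Counting only protein_coding transcripts with 90% or more of the principal coding length, another measure defined after the values had been seen, changes their order. It includes Fto-203, which ends in intron 8 but passes the length minimum. Wtap came to 19.7 and 13.9 TPM, Ythdc1 to 17.5 and 14.0, and Alkbh5 to 17.1 and 9.96. Zc3h13 had 13.1 and 10.4 TPM, Fto 12.5 and 10.2, and Virma 6.98 and 5.96. Ythdf1, Ythdf2 and Mettl3 lay between 3.94 and 5.62 TPM, and Mettl14 had 2.39 and 0.61. The lead of Ythdc1 over Ythdf2 was 1.62 and 1.48 on the log2 scale on this measure, against 2.63 and 2.78 over all transcripts. Fto over Alkbh5 was −0.45 and 0.03, against 0.20 and 0.60. By the mean of the libraries such transcripts held 50% or more of TPM in 6 of 10 members, beside 57.5% of 9510 genes with several transcripts. In each library 5 members did so, and 3 in each library of the second quantification.

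**Figure D4:**
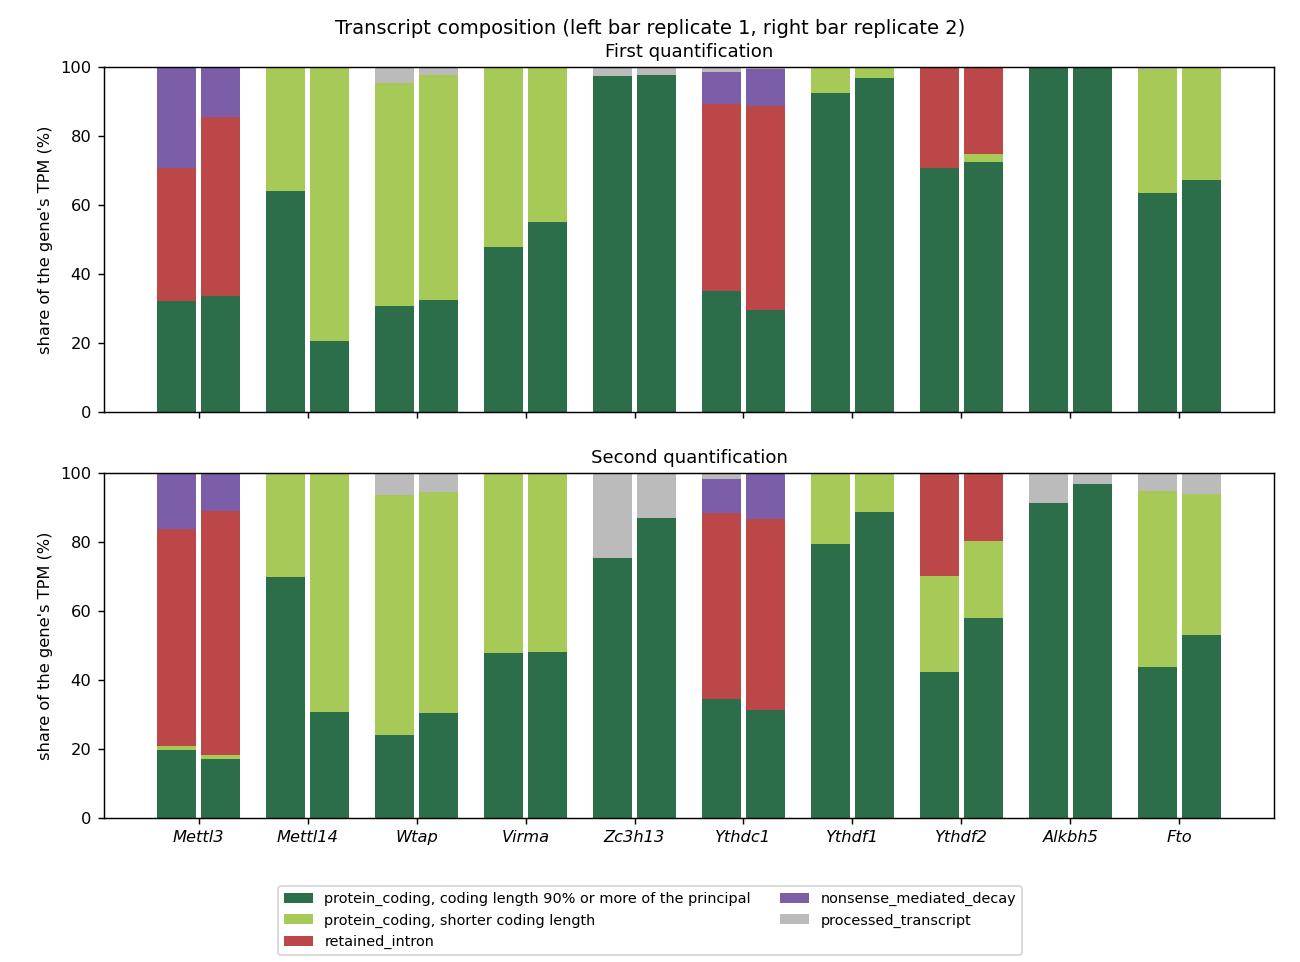
Share of each member's TPM (%) by annotated transcript class, with protein_coding divided by coding length, in replicate 1 (left bar) and replicate 2 (right bar), for the first quantification (top) and the second (bottom). Ythdc1 and Mettl3 carry retained_intron shares (54.1% and 59.3%, 38.6% and 52.0% in the top panel), while in Wtap, Virma and Fto the remainder is mostly on protein_coding transcripts of shorter coding length.

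Of 20 related genes of the pathway, 19 reached 1 TPM in both libraries of the first quantification, whose levels are given here, and none of the 19 with enough counts lay past 2-fold between them. Among 3 other writer-complex genes, Rbm15, an adaptor that guides the complex to RNA, was highest at 18.1 and 14.0 TPM. Cbll1, an E3 ubiquitin ligase also called Hakai, was lowest by mean at 2.49 and 3.24 TPM and had the widest ratio, 0.81. Rbm15b was lower than Cbll1 in replicate 2, at 3 TPM. Among 9 other readers, Hnrnpa2b1, an abundant nuclear RNA-binding protein, had 635.5 and 368.6 TPM. Igf2bp1 was at 0 and 1 count, but the second quantification gave it 182 and 265 counts, so its level depends on the quantification.

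All 5 other methyltransferase genes were detected. Trmt112, a small partner protein of several methyltransferases, was highest at 14.5 and 11.8 TPM, and Mettl16, which methylates U6 RNA and the Mat2a transcript, lowest by mean at 5.69 ± 2.57 TPM (SD, n = 2). Of the methyl donor genes, Mat2a, which makes S-adenosylmethionine, had 58.4 and 42.6 TPM. Ahcy, which clears the by-product S-adenosylhomocysteine, had 1.97 and 1.77 TPM.

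Part of the members' sequence is not theirs alone, which bears on how reads could be divided. Of the 31-base words in Mettl3 transcripts, 20.7% occur in other genes. Most of these (16.5% of its words) are shared with Tox4, which lies on the opposite strand, overlaps the 3′ end of Mettl3 by 1561 bases and had 1157 and 1364 counts. How the counting treated strand is unknown here, so reads of the overlap cannot be assigned with certainty. Mettl3 was the member whose count differed most between quantifications, at 1.69-fold and 2.33-fold for the second over the first. The median of tested protein-coding genes was 1.36-fold and 1.61-fold. Its largest rise was on Mettl3-203, from 15.7 and 29.5 counts to 156.7 and 242.0. The exons of Mettl3-203 end before the overlap with Tox4 begins. The cause of the difference was not tested. For Ythdf2 12.7% of words are shared, mainly with the pseudogenes Gm6823 and Gm8401, both at 0 counts. For Wtap it is 9.64%, and the leading partner Gm14292 had 1.02 and 2.08 counts. For Ythdc1 it is 6.99%, mainly with Gm43055, which was at 0 counts. Fto, Mettl14 and Alkbh5 share 3.10% or less, and Virma, Zc3h13 and Ythdf1 share none.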

How the data were processed

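Each library has its own tables, with nothing pooled. In the first quantification the authors deposited, with column names as RSEM writes them, each gene and transcript has an expected count, TPM, FPKM, a posterior-mean TPM and a posterior SD, per the file headers. A second one, with kallisto's column names, has estimated counts and TPM by transcript, per the file headers. Assembly mm10 and GENCODE M21 are named in the notes deposited with the tables. Of program versions, filters and strand setting, each was not given in the sources used here. All 55536 gene identifiers matched that annotation. Entries that name no gene took 0.823% and 0.207% of counts and were left out.

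Expected counts were rounded and scaled by TMM (edgeR 4.0.16, R 4.3.3). Ratios used a prior count of 0.5 and exact Clopper-Pearson 95% intervals, which cover counting error only. A count of 0 allows up to 3 counts, 0.159 and 0.166 CPM. The ratio step was tested on simulated counts, and the step that finds intron overlap on a made-up gene. The shares themselves were not tested on simulated data. Intron and coding measures were computed against the APPRIS principal transcript with Python 3.11.15. Alternatives were size factors of DESeq2 1.42.0, scaling by totals, ratios of TPM, posterior-mean TPM, the second quantification, other minimums and leaving out each replicate. All 10 members are named, with each member's highest and highest retained_intron transcript; further transcripts were named after their values were seen, as were the intron-sequence, early-end and full-coding measures. Of the related genes the highest and lowest of each group are named, with any under 1 TPM. Rbm15b and Ythdf3 were named after their values were seen. The members and lists were chosen with earlier results of these data known. With 1 group, no test between conditions was possible.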

Additional observations from a re-analysis of the deposited data

How the results depend on the processing

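No paired analysis was possible because the 2 libraries form 1 group. All 10 members reached 1 TPM under each alternative at that minimum, and 6 reached 10 TPM in both libraries. Their median level was 7.75 TPM in the second quantification and 49.4 TPM over nuclear protein-coding genes alone, and 10.7 to 14.0 TPM with 1 replicate left out. Their median replicate ratio was −0.33 on TPM ratios, where the median of all tested genes was −0.36; on that scale Mettl14 (−0.33), Ythdc1 (−0.078), Ythdf1 (−0.14), Ythdf2 (−0.22) and Zc3h13 (−0.34) changed sign, and with the GC trend taken out Ythdc1 did (−0.060). Genes over 2-fold higher and lower in replicate 2 (752 and 618) numbered 373 and 1769 on TPM ratios, 1942 and 1110 in the second quantification, 2959 and 3306 with no count filter, and 146 and 194 at a mean scaled count of 100 or more. Medians follow on shares of counts, and then in the second quantification, with all genes to which a measure applies in brackets. The members' retained_intron share was 22.6% and 39.7% (19.6% and 36.5%). Their intron-sequence share was 56.1% and 63.5% (25.6% and 49.0%), and their early-end share 25.3% and 31.8% (11.9% and 46.9%). The full-coding share was 62.5% (55.9%) on TPM of the first quantification. It was 66.3% and 48.2% (76.0% and 39.8%) on the 2 alternatives. The intron-sequence share of the members was 60.3% with a minimum of 30 bases and 53.4% with 300. Leaving out a replicate gave 34.0 to 38.6%, 56.7 to 58.5%, 27.2 to 28.9% and 61.2 to 63.8% for the 4 shares in that order. The log2 ratio of Mettl3 over Mettl14 was 2.75 in the second quantification, 0.28 over protein_coding transcripts, 1.64 over full-coding ones (0.77 and 2.51 in replicates 1 and 2), 1.62 with a pseudocount of 1, and 1.77 to 1.95 with a replicate left out. The cause of these moves was not tested.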
